A study of Mus musculus with 8 samples.

Results

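The 9 genes described here are transcription factors of the primitive streak, tail bud and axial progenitors of the mouse embryo: T, Cdx1, Cdx2, Cdx4, Nkx1-2, Sp5, Evx1, Mixl1 and Eomes. They were taken by name, out of 20660 genes that the array measured, as every non-control probe whose RefSeq accession maps to one of these symbols, which gave 12 probes. Of these, 9 probes were well above background on all 8 arrays, 1 Nkx1-2 probe on 4 arrays, and the Mixl1 probe and 1 Eomes probe on 0 arrays. The samples were 8 embryos of wild-type genotype at day 8.5 after mating (E8.5), 4 sired by wild-type fathers and 4 by fathers heterozygous for Eedl7Rn5-1989SB, a hypomorphic allele of Eed, which encodes a core subunit of the Polycomb repressive complex that methylates lysine 27 of histone H3. All mothers were wild type, and their strain is C57bl6/129 in the labels, as for the fathers, but C57bl/6J in a legend of the study. Each group held 2 females and 2 males, and every embryo had its own one-colour Agilent array. The groups are written below as WT father and HET father, and the design asks whether embryos of equal genotype differ with the genotype of the father.

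The body axis of the mouse embryo is laid down from head to tail by progenitors in the primitive streak and later in the tail bud. Wnt and FGF signals keep these progenitors in place, T and the Cdx factors act with those signals, and Sp5 is a known target of Wnt signalling through the TCF/LEF factors. Cells that leave the tail bud become spinal cord, or presomitic mesoderm that segments into somites, with trunk Hox genes switched on in order. Mixl1 and Eomes belong to the earlier, gastrulating streak.

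The arrays came with 2 limits that touch every father comparison. All 4 arrays of each group lay on a slide of that group's own, so slide and father cannot be told apart. From the embryo codes, 3 of the 4 WT father embryos share their first number, against 4 different numbers among the HET father embryos. The study's legend for its breeding plan gives 2 wild-type sires and several heterozygous ones. Its legend for this array comparison gives n = 4 for each genotype, which may count males or offspring. Which sire or litter each embryo came from is not stated in the sources used here, so p-values measure the spread between these embryos, some of which may be littermates. In bulk RNA of embryos, fewer cells of a kind and less RNA per cell cannot be told apart. Among the 33068 probes tested, 0 were called at an adjusted p under 0.01 and at least 2-fold (limma with Benjamini-Hochberg adjustment), which is 0% of them, and the smallest adjusted p was 0.246.

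The promoters of T, Sp5 and Evx1 are shown because these were the genes that ordered the 8 embryos most alike. Each sequence holds the 250 bases before the RefSeq start of the gene on build GRCm38.p6, at chr17:8434173-8434422 for T, chr2:70474673-70474922 for Sp5 and chr6:52313248-52313497 for Evx1, all on the plus strand, and capitals mark the matches to a TCF/LEF word (CTTTG, then 2 bases that are each A or T) or a CDX word (TTTAT, then any base but C, then G), searched on both strands.
T: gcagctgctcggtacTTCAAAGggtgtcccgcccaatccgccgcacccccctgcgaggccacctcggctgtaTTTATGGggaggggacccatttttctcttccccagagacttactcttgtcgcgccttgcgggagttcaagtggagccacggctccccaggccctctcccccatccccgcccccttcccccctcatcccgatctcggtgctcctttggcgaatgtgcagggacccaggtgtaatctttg
Sp5: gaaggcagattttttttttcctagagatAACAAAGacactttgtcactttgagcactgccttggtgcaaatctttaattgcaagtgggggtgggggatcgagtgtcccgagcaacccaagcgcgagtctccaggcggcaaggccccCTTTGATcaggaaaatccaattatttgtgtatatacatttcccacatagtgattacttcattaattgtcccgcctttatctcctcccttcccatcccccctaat
Evx1: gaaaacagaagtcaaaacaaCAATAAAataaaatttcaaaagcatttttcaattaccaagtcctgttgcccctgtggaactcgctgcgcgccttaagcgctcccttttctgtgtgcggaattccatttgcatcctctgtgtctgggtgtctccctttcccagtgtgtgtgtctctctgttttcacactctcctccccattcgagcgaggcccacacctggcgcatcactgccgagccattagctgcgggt
A TCF/LEF word was found in the promoters of T, with 1 match, and of Sp5, with 2, among the 7 member promoters in the table, against 14.8% of 32851 mouse promoters of the same length. A CDX word was found for T and Evx1, against 9.49% of all promoters. The T-box word TCACACCT was in 0 of the 7 and in 1.12% of all promoters, and the GC box GGGCGG, a word that Sp factors bind, was in those of T and Nkx1-2 and in 32.7% of all. These words are short, and a match is only a description of the letters.

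For none of the 8 genes that could be tested did the difference between the father groups pass the test. Of the 10 member probes tested, which cover 8 of the genes, 0 were called, and 0 had an unadjusted p under 0.05, against 2% of all tested probes higher and 2.35% lower with a HET father at that level. For 0 of the 10 did the groups fail to overlap, against 3.16% of all probes. The adjusted p was 0.9998 for each of them (limma), 5 had a lower and 5 a higher mean with a HET father, and for 8 of the 10 the 95% interval of the difference lay inside 2-fold in either direction. The other two are dim Nkx1-2 probes whose intervals reach beyond 2-fold.

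T, also called Brachyury, is the T-box factor that mesoderm of the streak and the notochord depend on. Its log2 levels (probe A_55_P2029161), where 0 is the 75th percentile of the array, were 1.08, 1.17, 1.19 and 1.58 in WT father replicates 1 to 4 and 1.17, 1.31, 1.09 and 1.43 in HET father replicates 1 to 4. Both replicate 4 embryos were highest, and the range of the HET father embryos lay inside that of the WT father embryos. The means were 1.26 ± 0.22 (SD, n = 4) and 1.25 ± 0.15 (SD, n = 4), and the log2 difference, HET father minus WT father, was -0.01 (SE 0.13, 95% interval -0.31 to 0.30, exact two-sided permutation p = 0.971, and limma p = 0.968 before adjustment). With 4 embryos against 4 the smallest p this permutation test allows is 0.0286.

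**Figure D1:**
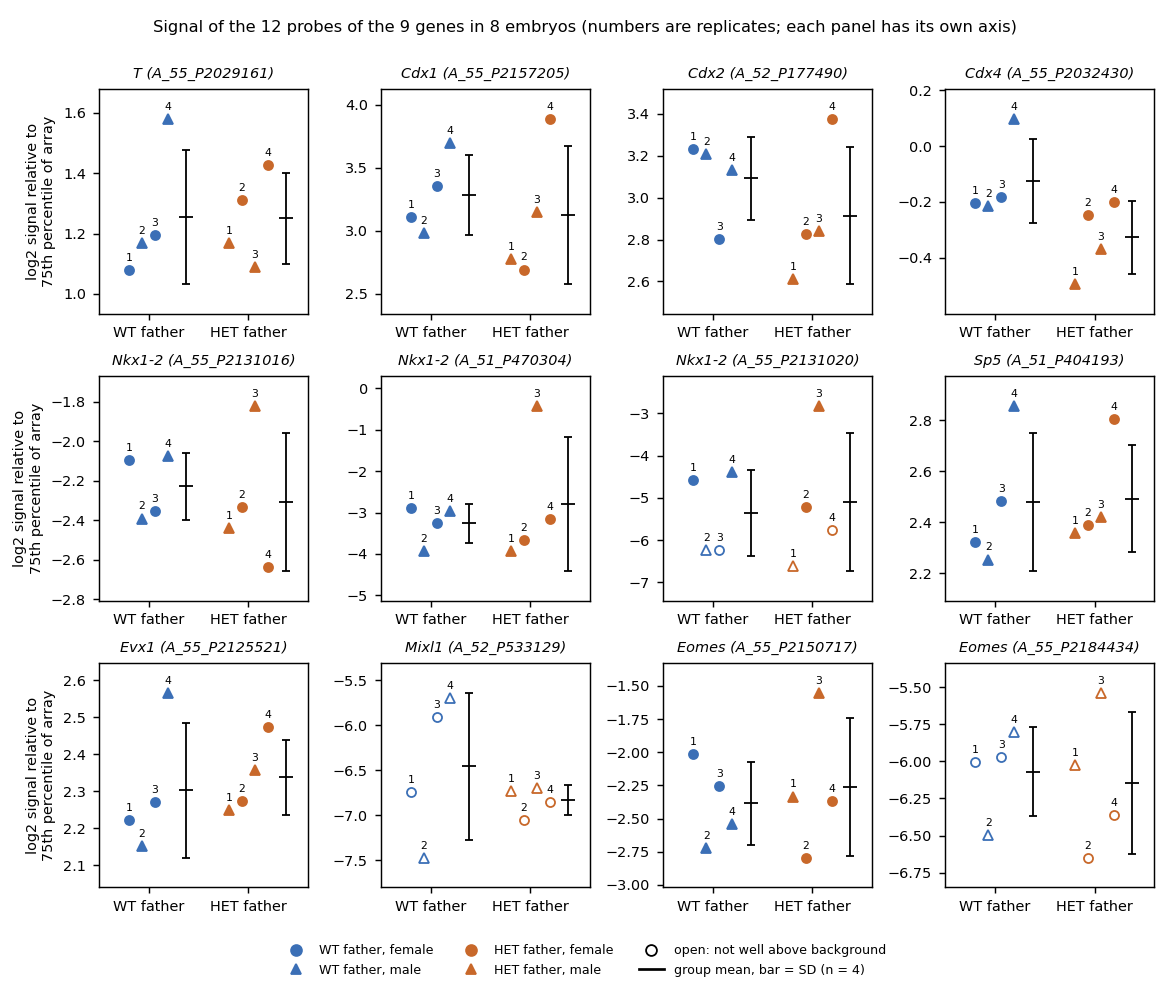
Log2 level (y axis, 0 = 75th percentile of the array) of the 12 member probes in the 4 WT father and 4 HET father embryos, one panel for each probe with its own axis, circles for females, triangles for males, open symbols for values not well above background and black bars for the group mean and SD. The groups overlap in every panel, and replicate 4 is highest in its group for T, Cdx1, Sp5, Evx1 and Cdx4.

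Sp5, a zinc finger factor of the Sp family, and Evx1, a homeobox gene of the streak and tail bud, were also highest in the replicate 4 embryos. Each put 23 of the 28 pairs of embryos in the same order as T. Sp5 (A_51_P404193) had levels of 2.32, 2.25, 2.485 and 2.86 with a WT father and 2.36, 2.39, 2.42 and 2.81 with a HET father. Evx1 (A_55_P2125521) had 2.22, 2.15, 2.27 and 2.57 with a WT father and 2.25, 2.27, 2.36 and 2.47 with a HET father. Replicate 4 was the highest of its group in both genes, and Evx1 had the smallest span of the members above background on every array, 1.33-fold from lowest to highest. The log2 difference was 0.01 for Sp5 (SE 0.16, 95% interval -0.365 to 0.39) and 0.04 for Evx1 (SE 0.11, 95% interval -0.22 to 0.29).

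The 3 Cdx genes, caudal-type homeobox factors that pattern the posterior body and act on trunk Hox genes, had lower means with a HET father, and none of the differences passed the test. Cdx1 (A_55_P2157205) had levels of 3.11, 2.98, 3.36 and 3.70 with a WT father and 2.77, 2.69, 3.15 and 3.89 with a HET father. Its lowest and highest embryos were both sired by HET fathers, and they spanned 2.29-fold. The log2 difference was -0.16 (SE 0.29, 95% interval -0.83 to 0.51), and the SD within groups lay at percentile 77.2 of all tested probes. With one embryo left out the difference ran from -0.42 (without HET father replicate 4) to -0.018 (without HET father replicate 2), and it was -0.024 without WT father replicate 4.

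Cdx2 (A_52_P177490), which also marks trophectoderm and later hindgut, had 3.23, 3.21, 2.80 and 3.13 with a WT father and 2.61, 2.83, 2.84 and 3.38 with a HET father. HET father replicate 4 was the highest embryo, and the other three HET father embryos lay below 3 of the 4 WT father embryos. The log2 difference was -0.18 (SE 0.18, 95% interval -0.60 to 0.24). Without HET father replicate 4 it was -0.33 with an unadjusted limma p of 0.0424 and an adjusted p of 0.845, the one member past 0.05 in any alternative, and without HET father replicate 1 it was -0.08.

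Cdx4, which is X-linked, came closest to the threshold among the members. Its probe, A_55_P2032430, had -0.20, -0.22, -0.18 and 0.10 with a WT father and -0.49, -0.25, -0.37 and -0.20 with a HET father. WT father replicate 4 was far above the other three of its group, and HET father replicate 4 lay among the lowest 3 WT father embryos. The log2 difference was -0.20 (SE 0.10, 95% interval -0.44 to 0.04, exact permutation p = 0.0857). The log2 difference between females and males was 0.04 (95% interval -0.23 to 0.30).

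**Figure D2:**
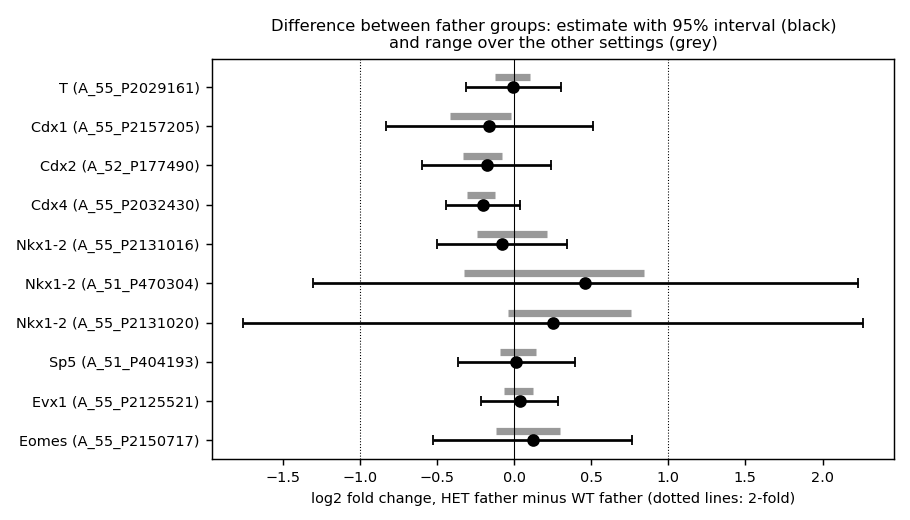
Log2 difference, HET father minus WT father, for the 10 tested member probes, with 95% intervals from limma in black, the range over the other settings in grey and dotted lines at 2-fold. For 8 probes the interval lies inside 2-fold, and for 2 Nkx1-2 probes it reaches beyond it.

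Nkx1-2, a homeobox gene of the caudal epiblast where spinal cord and mesoderm progenitors lie, was measured by 3 probes. The probe A_55_P2131016 had -2.09, -2.39, -2.35 and -2.07 with a WT father and -2.44, -2.34, -1.82 and -2.64 with a HET father, a log2 difference of -0.08 (SE 0.18). The dimmer probe A_51_P470304 had -2.89, -3.92, -3.26 and -2.95 with a WT father and -3.94, -3.66, -0.42 and -3.16 with a HET father. HET father replicate 3 stood far above the other embryos on this probe, which spanned 11.4-fold. The log2 difference of 0.46 (SE 0.76) became -0.33 without that embryo. Another probe, A_55_P2131020, was well above background on 2 arrays of each group, was highest in the same embryo at -2.82, and gave 0.25 (SE 0.86).

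The array of HET father replicate 3 read dim probes high. With all tested probes put in 4 equal classes by mean level, the dimmest class was shifted by a median of 0.94 in log2 level against the other 7 arrays, and by 0.47 on the array of WT father replicate 1, while the brightest class was shifted by 0.02 and -0.01. The small shifts of the brightest class follow in part from this scaling. After the median shift, T, Sp5, Evx1, Cdx1, Cdx2 and Cdx4 deviated by a mean of -1.06 in HET father replicate 3 and -0.43 in WT father replicate 1. Set against the dimmest class, the deviation of the Nkx1-2 probe A_51_P470304 in HET father replicate 3, 2.97, lay at percentile 93.6. The probe itself is not in that class. Its means, -3.26 with a WT father and -2.79 with a HET father, lie in the next class, from -3.60 to -1.14. The same holds for A_55_P2131016 and the Eomes probe A_55_P2150717, and no shift is given here for that next class. The part of this shift in the Nkx1-2 and Eomes values was not tested beyond leaving that embryo out.

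**Figure D3:**
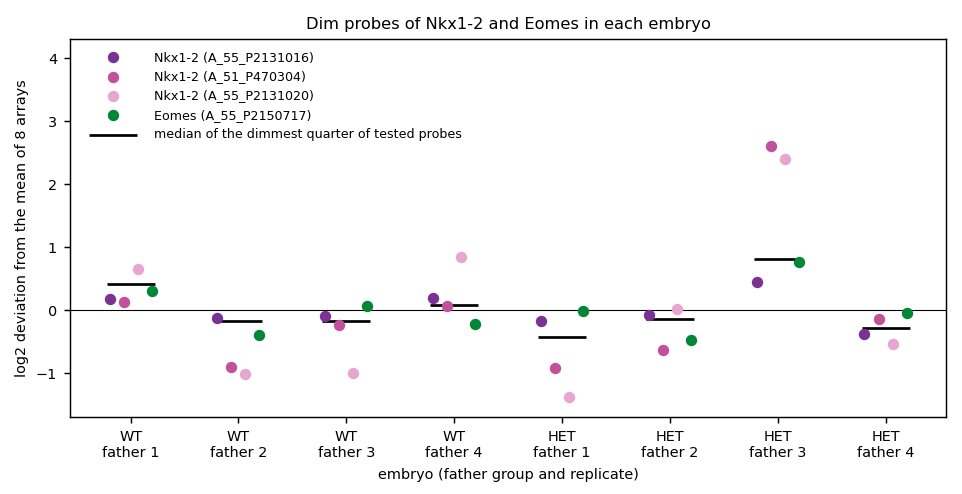
Deviation from the mean of the 8 arrays, in log2 level (y axis), for each embryo (x axis), of 3 Nkx1-2 probes and 1 Eomes probe (points) and of the median of the dimmest of 4 classes of tested probes (black dashes). The dashes are highest in HET father replicate 3, at 0.82, where 2 of the Nkx1-2 points stand above 2, and next in WT father replicate 1, at 0.41. Of the probes shown, only A_55_P2131020 belongs to that dimmest class.

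Of the 2 genes of the gastrulating streak, Mixl1, a homeobox gene of early mesendoderm, was not well above background on any array (probe A_52_P533129), so no difference is given. Eomes, a T-box factor of early streak and trophoblast, was well above background on all 8 arrays with the probe A_55_P2150717 and on 0 with A_55_P2184434, which lay from -6.65 to -5.54 and was not tested. The first had -2.01, -2.72, -2.26 and -2.54 with a WT father and -2.33, -2.80, -1.55 and -2.37 with a HET father. HET father replicate 3 was the highest embryo again. The log2 difference was 0.12 (SE 0.28, 95% interval -0.52 to 0.77) and -0.12 without that embryo.

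Sex was compared with father in the fit. Of the 10 tested member probes 0 were called between females and males, against 0.0333% of all tested probes, and 0 had an unadjusted p under 0.05, against 3.27%. The difference of the father effect between the sexes was called for 0 of all probes (0%), and 1 member probe, that of Eomes, had an unadjusted p under 0.05, against 2.22% of all. Its log2 father effect in females minus that in males was -1.14, with an unadjusted p of 0.0405 and an adjusted p of 0.996 by limma. With a WT father both females lay above both males. With a HET father both males lay above both females, the closest at -2.33 and -2.37. The highest female with a WT father, replicate 1, and the highest male with a HET father, replicate 3, had the arrays that read dim probes high. The interaction was not tested without them.

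On levels relative to the 75th percentile, 6 of the 8 members above background on all arrays were above their own mean together in one embryo of each father group. Nkx1-2 and Eomes were not. This was noticed after the values were seen, the 6 genes were chosen by it, and it is given as a description without a test. T, Sp5, Evx1, Cdx1, Cdx2 and Cdx4 were all above their own mean in WT father replicate 4, a male, and in HET father replicate 4, a female. Cdx2 was only 0.13 above in WT father replicate 4, below WT father replicates 1 and 2. Cdx4 was only 0.02 above in HET father replicate 4. The mean deviation of the 6 genes was 0.32 and 0.29 in log2 level in the replicate 4 embryos, and -0.23 to -0.02 in the other 6. Nkx1-2 (A_55_P2131016) deviated by 0.19 in WT father replicate 4 and by -0.37, its lowest value, in HET father replicate 4, and Eomes by -0.22 and -0.05. Over all 8 members the mean deviation was 0.23 and 0.16 in the replicate 4 embryos and -0.19 to 0.08 in the others. The mean of 25 axial progenitor and presomitic genes was 0.27 in WT father replicate 4, its highest, but 0.03 in HET father replicate 4, below HET father replicate 3 at 0.08. Both embryos were the top 2 of 8 for T, Cdx1, Sp5 and Evx1, 4 of the 6 genes, but not for Nkx1-2 or Eomes. Of all tested probes 2.91% had this pattern. Under 4 other scalings this held for 4 or 5 of the 6 genes and 3.08% to 4.33% of all probes. After the median shift, all 6 genes were also above their own mean in WT father replicates 2 and 3. In HET father replicates 1 and 2, 4 of the 6 were above it. Under the remaining scalings all 6 were above it only in the replicate 4 embryos.

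**Figure D4:**
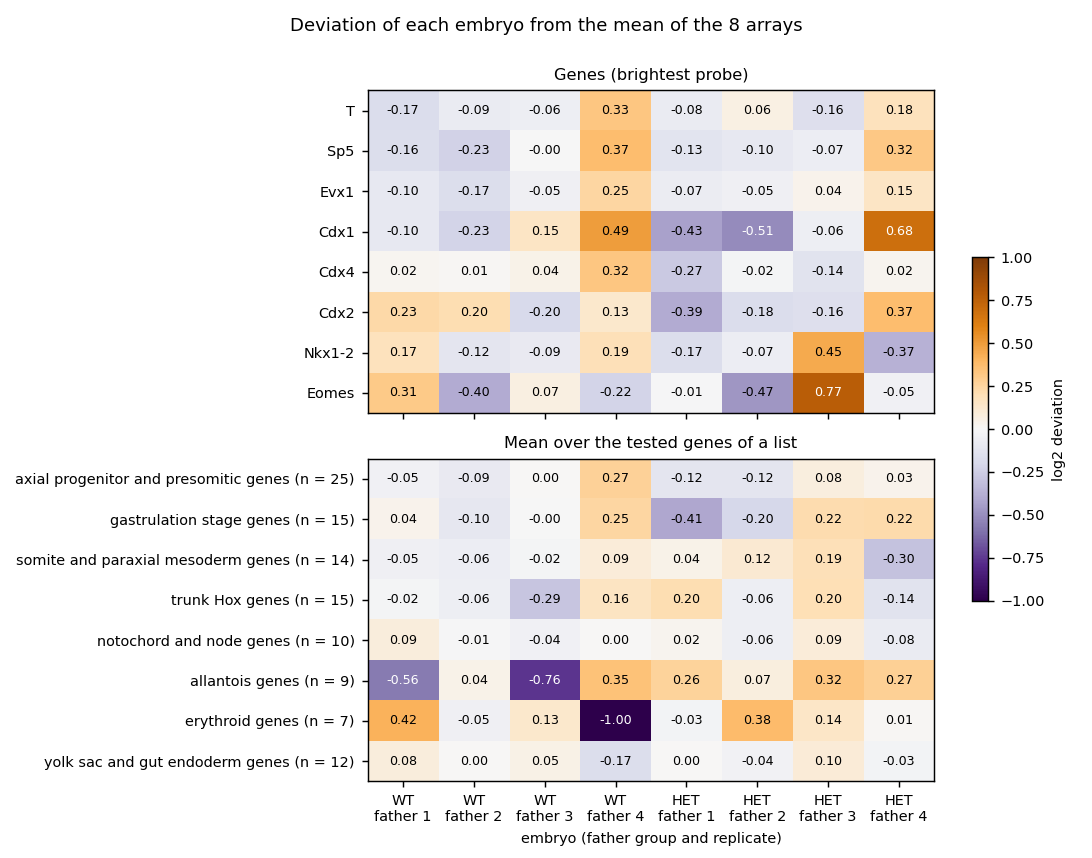
Deviation, in log2 level, of 8 members (brightest probe) and of the mean of 8 gene lists from their own mean over the 8 embryos, with one column for each embryo, orange for above and purple for below. Both replicate 4 embryos are above the mean for T, Sp5, Evx1 and the 3 Cdx genes, and the erythroid list is lowest, at -0.997, in WT father replicate 4.

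Pairs of members were also set side by side by how many of the 28 pairs of embryos they put in the same order, over the same 8 arrays. Sp5 and Evx1 did so for 26, T and Sp5 for 23, T and Evx1 for 23, Cdx1 and Cdx4 for 22, and Cdx1 and Sp5 for 22. T and Eomes did so for 8, and T and Nkx1-2 for 12. The genes most like the mean of the 8 members above background on every array, among 18289 candidates with a median of 14 pairs, were Adgrb2, Pdzd4, Map6, Marchf1 and Pmp22, each with 27 of 28 pairs. Without Eomes and Nkx1-2, a choice made later, Stmn2 had 28, and Tacr2, Trp63, Hdac1 and Ilrun had 27, with a median of 13. Among so many candidates ordered over 8 embryos, some would match this closely by chance, and the matches were not tested.

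Other tissues also varied between these embryos. The mean of 7 erythroid genes was at -0.997 in WT father replicate 4 and 0.01 in HET father replicate 4, and the summed level of that list ranged from 474 to 1078 with a WT father and from 739 to 931 with a HET father. The 9 allantois genes averaged 0.35 and 0.27 in the replicate 4 embryos but -0.56 and -0.76 in WT father replicates 1 and 3. They averaged 0.26 and 0.32 in HET father replicates 1 and 3. In replicate 2 they averaged 0.04 with a WT father and 0.07 with a HET father. The 14 tested somite genes averaged 0.09 in WT father replicate 4 and -0.30, their lowest, in HET father replicate 4. The summed levels of 9 trophoblast genes ranged from 14.4 to 17.2 with a WT father and from 15.0 to 19.0 with a HET father, those of 10 notochord and node genes from 183 to 197 and from 160 to 195, and those of 12 yolk sac and gut endoderm genes from 486 to 676 and from 588 to 618. Levels were summed off the log scale, so the notochord and node sum is mostly Krt18 and Krt8. Their mean log2 levels with a WT father were 7.16 and 4.74, against -2.36 for Shh. The other sums are also weighted to their brightest genes. In the trophoblast list this was Hand1, which is also in the allantois list, at 2.75 with a WT father, against -2.97 for Elf5. In the erythroid list it was Hbb-bh1 at 8.65, and in the yolk sac and gut endoderm list Rbp4 at 7.69. The trophoblast gene Tpbpa was not well above background on any array. The part of these tissues in the tail bud values was not tested.

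Genes of the same pathway gave 0 calls in every list. Of 25 tested axial progenitor and presomitic genes, 7 were higher and 18 lower with a HET father, with a median log2 difference of -0.07 against -0.0002 over all probes, of which 16510 were higher and 16558 lower, and 2 had an unadjusted p under 0.05, both lower. These were the Notch ligand Dll1, at -0.24 with an unadjusted p of 0.0445, and Lfng, which modifies Notch, at -0.25 with 0.0359, both with an adjusted p of 0.9998 by limma. Without WT father replicate 4 the median of the list was 0.0012, and without WT father replicate 3 it was -0.026. The extremes of the list were Msgn1, a presomitic factor, at 0.22 and Gdf11, a ligand of the tail bud, at -0.34. Of 15 gastrulation genes 5 were higher and 10 lower, with a median of -0.02, from Mesp1 at -0.49 to Lefty2 at 0.24. Of 10 tested notochord and node genes 3 were higher and 7 lower (median -0.05, Krt8 at -0.13 to Epcam at 0.21).

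Trunk Hox genes, which Cdx factors are known to act on, gave 13 higher and 2 lower of 15, with a median of 0.17 that was 0.09 without WT father replicate 3, 0.10 without HET father replicate 3 and 0.11 without HET father replicate 1. Those with an unadjusted limma p under 0.05 were Hoxb5, at 0.17 with groups that did not overlap and a p of 0.0356, and Hoxb7, at 0.28 with a p of 0.0468, both with an adjusted p of 0.9998. Hoxa7 was lowest at -0.27. Of 14 tested somite genes 8 were higher and 6 lower (median 0.01), with Meox1 at 0.33 and Pax3, of the dermomyotome and dorsal neural tube, at -0.22 with an unadjusted limma p of 0.0299 and an adjusted p of 0.9998. Of 14 tested T-box family genes 10 were higher and 4 lower (median 0.02, Tbx22 at -0.54 to Tbx4 at 0.93), and of 6 tested paralogues of the members 1 was higher and 5 lower (median -0.08, Pdx1 at -0.27 to Sp1 at 0.06).

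Markers of other tissues gave these values beside them. Allantois genes were higher for 9 of 9 (median 0.37, Bmp4 at 0.15 to Tbx4 at 0.93) and erythroid genes for 7 of 7 (median 0.19, Hbb-bh1 at 0.11 to Klf1 at 0.53), with no gene under an unadjusted p of 0.05. Without WT father replicate 4 the erythroid median was -0.03 and the allantois median 0.51. The allantois median was 0.26 without WT father replicate 1 and 0.29 without WT father replicate 3. Of 9 tested trophoblast genes 6 were higher (median 0.05, Prl3d1 at -0.91 to Plac1 at 0.53), and of 12 yolk sac and gut endoderm genes 10 (median 0.04, Apob at -0.36 to Trh at 0.19). Of 6 tested decidua genes 2 were higher (median -0.06, Hand2 highest at 0.19), and the decidual prolactin gene Prl8a2 was at -2.46 with groups that did not overlap, an unadjusted limma p of 0.0126 and an adjusted p of 0.9998. After a shift by the median of each array, which moved the median of all probes to -0.10, the medians of the somite, T-box, trophoblast and yolk sac lists were -0.09, -0.08, -0.05 and -0.06, and that of the trunk Hox list was 0.06. With one embryo left out, the median of the gastrulation list ran from -0.11 (without HET father replicate 3) to 0.02 (without HET father replicate 2), that of the somite list from -0.04 (without WT father replicate 1) to 0.12 (without HET father replicate 4), that of the trophoblast list from -0.05 (without HET father replicate 3) to 0.08 (without HET father replicate 1) and that of the yolk sac list from -0.04 (without WT father replicate 4) to 0.07 (without WT father replicate 1).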

How the data were processed

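RNA of 8 embryos was labelled with Cy3 and hybridised to one-colour Agilent 8x60K arrays. The deposited scanner files, made by the authors with Agilent Feature Extraction 11.0.1.1, hold an intensity for each spot after background subtraction and spatial detrending, with no scaling between arrays. A deposited table with intensity values of every array served as an alternative, and 0 of its sample columns were unused. Probe intervals are on build mm9 and were not used.

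From the log2 intensity, the array's own 75th percentile was subtracted. Of 59305 non-control spots, outlier spots were left out, and the spots of each of 55681 probes were averaged. The lowest 20% of probes by mean level, and those well above background on fewer than 4 arrays or without a value on every array, were not tested. The comparisons were fitted in limma 3.58.1 under R 4.3.3 (with the package data.table at version 1.17.8). A call needed a 2-fold change and an adjusted p (Benjamini-Hochberg) below 0.01, after the study's methods, which name neither a test nor the percentile. Precision is set by the small number of arrays. Of 28685 probes with a RefSeq accession, 27235 matched a symbol in a table of assembly GRCm38.p6. The promoters come from RefSeq on that assembly.

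The members and the lists were chosen with earlier results of these data known. The text names every member probe, and from each list the genes at an unadjusted p under 0.05 and the largest rise and fall, by the brightest tested probe, and the 5 genes that ordered most pairs of embryos as the members did. Alternatives were the median shift, quantile normalization, normexp (offset 50) with quantile normalization, the deposited table, other filters, sex, replicate number or embryo code in the fit, trended moderation, the mean of a gene's probes, and each embryo left out. The fit was tested on simulated data. Figures were drawn with matplotlib 3.10.9, and tables made with pandas 2.3.3 and numpy 2.4.6, under Python 3.11.15.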

Additional observations from a re-analysis of the deposited data

Results flagged for a closer look

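Among 46 groups of 4 embryos tested for an embryo far from the rest of its group, 3 passed, where chance gives 2.3. In WT father replicate 4, Cdx4 had a level of 0.10 against -0.22 to -0.18 in the other three embryos, a gap of 0.891 of the range of the group. In HET father replicate 4, Sp5 had 2.81 against 2.36 to 2.42, a gap of 0.862 of the range. The mean of the paralogues of the members was 0.18 in WT father replicate 4 against -0.02 to 0.01, a gap of 0.841 of the range.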

How the results depend on the processing

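The number of called members was 0 in every alternative for the father and for the sex comparison, and called probes over the whole array numbered 0 in the 11 alternatives with all embryos. Leaving out one embryo gave 0 to 1 called probes, with 1 without WT father replicate 1 and 1 without HET father replicate 4. Of the alternatives chosen after seeing the data, leaving out both replicate 4 embryos gave 0 and leaving out WT father replicate 1 and HET father replicate 3 gave 1. Probes at an unadjusted p under 0.05, 1437 in the main setting, numbered 477 after the median shift, 684 with a random block for the embryo code (correlation 0.539), 2622 with normexp, 5328 without a filter and 897 to 3029 with one embryo left out (3029 without HET father replicate 3). Over all tested probes, correlations of the deviations of embryos with the same replicate number were -0.547, -0.0452, -0.587 and -0.149. These values also carry the shifts of dim probes between arrays, so they cannot show whether the numbers pair embryos by sire, litter or handling. The replicate block gave 873 probes at an unadjusted p under 0.05 and 0 called. Probes called between the sexes, 11, numbered 0 with all arrays above background, 0 with the replicate block, 5 without a filter and 1 to 7 with one embryo left out. The first of these filters drops any probe that is at background in one sex, so its 0 does not show whether such calls are stable.

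Small differences changed sign. After the median shift, which moved the median of all probes to -0.10, Sp5 was at -0.0889 and Evx1 at -0.0672, both above that median. T was 0.032 with the random block, and Nkx1-2 was 0.21 as the mean of its probes. With one embryo left out, T lay from -0.0649 to 0.1029, Sp5 from -0.0905 to 0.14, Evx1 from -0.0151 to 0.12, Eomes from -0.12 to 0.30, and the Nkx1-2 probes A_51_P470304 from -0.33 to 0.84, A_55_P2131020 from -0.0398 to 0.76 and A_55_P2131016 from -0.24 to 0.0305. Without both replicate 4 embryos T was 0.0434 and the Nkx1-2 probe A_55_P2131016 0.0822. Without WT father replicate 1 and HET father replicate 3, Sp5 was -0.0143 and A_51_P470304 -0.20. The cause was not tested. Cdx1, Cdx2 and Cdx4 kept a negative sign in every alternative, and with one embryo left out Cdx1 lay from -0.4156 to -0.0177, Cdx2 from -0.333 to -0.0778 and Cdx4 from -0.2431 to -0.1267. The Mixl1 probe and 1 Eomes probe were well above background on 0 arrays and 1 Nkx1-2 probe on 4.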
